A study of Mus musculus with 10 samples.

Results

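The genes described here are 34 genes of glycolysis and of the hypoxia-inducible factor (HIF) programme, of which 31 were measured. They were chosen by name for their place in the pathway and not by a cut on measured values. The choice was made with earlier results of these data known, so the counts below describe the genes and do not test them as a set. Each gene was read from its probe set that carries a single gene symbol, and the probe set with the highest mean over the 10 arrays was used where there were several. The 31 genes are part of 18193 genes on the array with such a probe set. All 31 lay above the filter on dim genes, which kept 12160 genes for testing. The probe sets of Bnip3l carry several symbols, no probe set is listed for Gpi1 or Eno1, and these 3 genes are not analysed here. The measured genes were divided by role into 14 glycolytic enzymes, 6 genes of glucose transport and flux control, 10 other HIF targets and Hif1a itself.

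The cells were mouse Lewis lung carcinoma (LLC) cells, a tumour line of the C57BL/6 strain, in 2 stable forms. TDAG8-LLC cells carried the receptor TDAG8, a G protein-coupled receptor (gene symbol Gpr65) that senses protons, and control LLC cells carried the vector. All cells were starved of serum for 12 h in medium with bovine serum albumin at pH 7.4 and then received the same kind of medium at pH 6.4 or at pH 7.4 for 4 h or 12 h. For each line there was also 1 array of cells before treatment. RNA of 4 separate cultures was pooled for each Affymetrix Mouse430 2.0 array, so that each line and condition has 1 array and no replicate. Every group is one stably transfected line kept in culture, the labels do not state whether the lines are clones, and oxygen is not given as a variable of the design.

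Glycolysis splits glucose into pyruvate in the cytosol and yields ATP without oxygen, and lactate dehydrogenase turns pyruvate into lactate. HIF-1 is a dimer of an oxygen-regulated alpha subunit, encoded by Hif1a, and the constant subunit ARNT. Prolyl hydroxylases of the EGLN family mark the alpha subunit for destruction when oxygen is present, and the stabilised dimer switches on glucose transporters, most glycolytic enzymes and genes of mitochondrial turnover, angiogenesis and collagen modification. Tumour cells rely heavily on this programme, and the lactic acid it produces is a main source of acid in tumours.

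The deposited signal is linear, and every array had been scaled to a 2% trimmed mean of 100. Array medians ran from 11.7 to 13.8. The Gpr65 probe set read 0.3 to 5.3 on all 10 arrays and shows the transgene in neither line, so that these arrays do not check the labels of the lines. Of 8 epithelial markers on the array 4 passed the filter, among them Krt8 (signals of 1242 to 2648), while the epithelial cadherin gene Cdh1 read 0.2 to 5.3 and the lung lineage gene Nkx2-1 0.5 to 9.2. The mesenchymal filament gene Vim read 6139.9 to 9227. The summed signals of 5 leukocyte, 4 endothelial and 2 red cell markers were at most 39.5, 33.0 and 11.1, that of 4 skeletal muscle markers was at most 85.4, and the leukocyte gene Ptprc read 1.2 to 6.3. The lung markers, whose summed signal was at most 43.9, thus do not show a lung origin, and the name LLC is used as the labels give it. In cultures pooled for an array, fewer cells that express a gene and less RNA per cell cannot be told apart.

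The first comparison set pH 6.4 against pH 7.4 over both lines and both times, and asked which acid response the lines and times share. Pfkfb3 and the glucose transporter gene Slc2a3 were higher in acid, 4 HIF targets outside glycolysis (Egln3, Bnip3, Ankrd37 and Kdm3a) were lower, and of the glycolytic enzymes Hk2 alone passed, with a lower level. Of the 31 genes 2 rose and 5 fell, 7 in all, beside 4.51% of all genes tested that rose and 5.65% that fell, 10.2% in all. In all 4 pairs of arrays 7 of the 31 genes were higher in acid, beside 21.7% of all genes tested, and 12 were lower, beside 20.6%. Of these, 1 higher and 3 lower were enzymes, 3 and 3 were transport or flux regulators, and 3 and 5 were other HIF targets. Both that rose are transport or flux regulators (2 of 6). Of the other HIF targets 4 of 10 fell and 0 rose, and of the glycolytic enzymes 1 of 14 fell and 0 rose. The median log2 difference was -0.01 for the enzymes, 0.01 for transport and regulators and -0.53 for the other HIF targets, beside -0.00311 over all genes tested. Differences are on the scale of log2(quantile-normalised signal + 2.4), called at a limma adjusted p under 0.05 over 12160 genes, with 4 matched pairs of arrays (line and time) in place of replicates. Signals quoted below are the deposited ones, given for 4 h and then 12 h.

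The largest rise was that of Pfkfb3, which encodes the bifunctional enzyme that makes fructose 2,6-bisphosphate, the main activator of phosphofructokinase. It read 161 and 122 in TDAG8 cells and 108 and 139 in control cells at pH 6.4, against 40.9 and 38.8 in TDAG8 cells and 41.2 and 38.2 in control cells at pH 7.4. Before treatment it read 60.8 (TDAG8) and 32.8 (control). All 4 acid values lay above all 4 neutral ones, a 3.4-fold rise (log2 1.77, SE 0.14, adjusted p = 0.014, higher in all pairs). A second, dimmer probe set of Pfkfb3 gave a smaller log2 difference of 0.97.

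Slc2a3, which encodes the high-affinity glucose transporter GLUT3, was the other gene that rose. Its signals were 279.9 and 508 in TDAG8 cells and 168 and 427 in control cells at pH 6.4, against 162 and 150.1 in TDAG8 cells and 133 and 119.7 in control cells at pH 7.4, and before treatment 182 (TDAG8) and 147 (control). All acid values exceeded all neutral ones, although the control line at 4 h, with 168, lay just above the highest neutral value of 162 (log2 1.24, SE 0.27, adjusted p = 0.0471, higher in all pairs). The other 3 probe sets, all dimmer, gave log2 differences of 1.14, 1.17 and 1.21. In the control line at 4 h they gave 0.05, -0.27 and 0.32, so they did not all show the early rise there. The probe set used ends in s_at, a class that can also bind related transcripts. The call was lost in 9 of 15 alternative fits.

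Among the genes that fell, Egln3 did so most. It encodes the prolyl hydroxylase PHD3, which is both a regulator of HIF and one of its targets. It read 422 and 427 in TDAG8 cells and 331 and 328 in control cells at pH 6.4, against 993 and 950.2 in TDAG8 cells and 826 and 915 in control cells at pH 7.4, with 1119 (TDAG8) and 954 (control) before treatment. The highest acid value was 427 and the lowest neutral one 826, and its second probe set gave a log2 difference of -1.20 beside the -1.32 of the first (SE 0.12, adjusted p = 0.014, lower in all pairs). Bnip3, a mitochondrial BH3-domain protein that marks mitochondria for autophagy, read 478 and 338 in TDAG8 cells and 261 and 244 in control cells at pH 6.4. At pH 7.4 the values were 712 and 771 in TDAG8 cells and 565 and 724 in control cells, and before treatment 797 (TDAG8) and 683 (control). The acid and neutral arrays did not overlap, and the fall was largest in the control line at 12 h (log2 -1.12, SE 0.19, adjusted p = 0.0271, lower in all pairs).

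Kdm3a, a histone demethylase gene that HIF induces, read 427 and 305 in TDAG8 cells and 342 and 328 in control cells at pH 6.4, against 591 and 740 in TDAG8 cells and 570.3 and 559 in control cells at pH 7.4. Its signals before treatment were 576 (TDAG8) and 523 (control), close to the neutral arrays, and every acid value lay below every neutral one (log2 -0.82, SE 0.17, adjusted p = 0.0447, lower in all pairs). Ankrd37, an ankyrin repeat gene known as a HIF target, was dim throughout. It read 15.8 and 10.7 in TDAG8 cells and 8.8 and 13.6 in control cells at pH 6.4, against 25 and 22.6 in TDAG8 cells and 28.6 and 26.6 in control cells at pH 7.4, and 28.2 (TDAG8) and 20.1 (control) before treatment, without overlap between acid and neutral arrays (log2 -0.88, SE 0.20, adjusted p = 0.0496). Its signals stood close to the lower end of the array, and with a pseudocount of 32 its difference was -0.35.

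Of the glycolytic enzymes, Hk2 was the one that fell. Hexokinase 2 is the inducible, mitochondria-bound isoform that catalyses the first step of glycolysis. It read 621 and 669 in TDAG8 cells and 368 and 497 in control cells at pH 6.4, against 887 and 1104 in TDAG8 cells and 729.8 and 830.3 in control cells at pH 7.4, and 861 (TDAG8) and 786 (control) before treatment. Each acid value lay below each neutral value (log2 -0.77, SE 0.12, adjusted p = 0.0232, lower in all pairs). The housekeeping isoform Hk1 had a log2 difference of -0.01 (95% interval -0.40 to 0.39), with signals between 476 and 668 on the 10 arrays.

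The count depended on the arrays and the filter. By limma 0 of the 31 genes, and 0 of all genes, passed without the TDAG8 pair at 12 h or without the control pair at 12 h, where the adjusted p of these 7 genes was 0.063 to 0.15, and 2 of 31 passed when either of the 4 h pairs was left out, beside 0.863% of all genes without the TDAG8 pair and 2.38% without the control pair. With no filter 2 of 31 passed, beside 1.40% of all genes in the same fit, and 4 passed with arrays centred on the median, beside 7.47%. When the time of exposure was allowed to modify the acid effect 13 passed, beside 28.1%, and no sign of the 7 genes changed in these fits. The plot of acid differences by pair shows the 4 matched differences of all 31 genes.

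**Figure D1:**
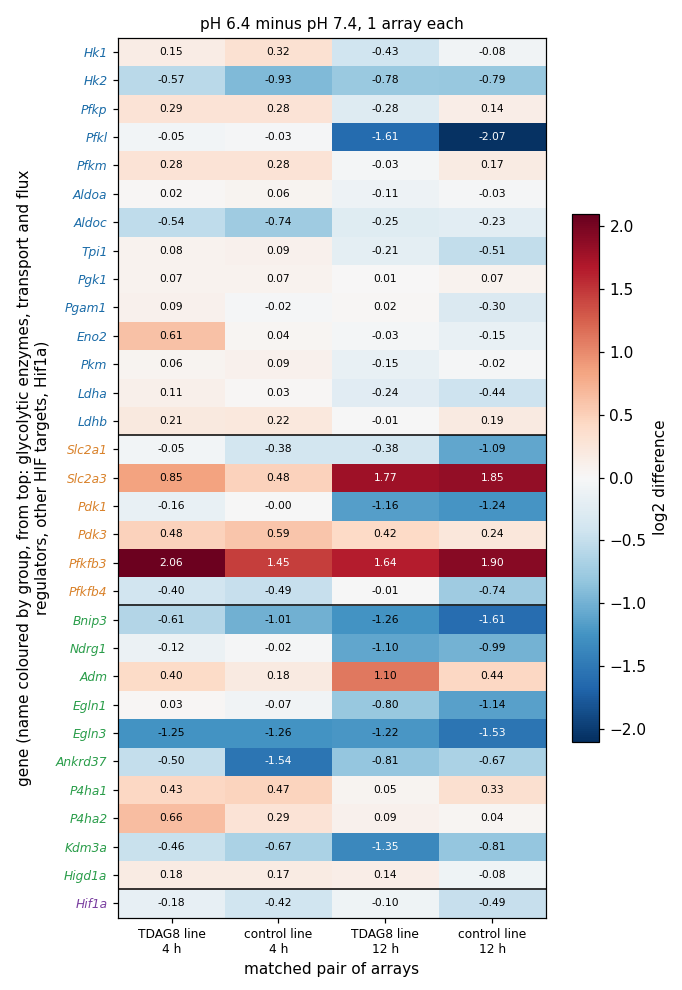
Log2 difference of pH 6.4 minus pH 7.4 for each measured gene (rows, grouped by role) in the 4 matched pairs of arrays (columns, TDAG8 line left of control line at each time), 1 array on each side of each difference. Pfkfb3 and Slc2a3 are above 0 in all 4 pairs, Egln3, Bnip3, Kdm3a, Ankrd37 and Hk2 below 0 in all 4, and most other values of the glycolytic enzymes lie near 0 apart from Hk2, Aldoc at 4 h, Pfkl at 12 h, Eno2 at 4 h in the TDAG8 line and Tpi1 at 12 h in the control line.

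The promoters of the genes that passed are shown because HIF binds its targets through a short core within the hypoxia response element, ACGTG or GCGTG. The windows run from 250 bases before to 50 bases after the annotated gene start (RefSeq, GRCm38.p6, first listed start of a gene), and capitals mark ACGTG or its reverse complement CACGT, which overlap where the letters read CACGTG. Up to 3 genes per group are printed, by the size of the acid difference, which leaves out Kdm3a, whose window holds no ACGTG core. Slc2a3 is not in the promoter table. Pgk1 and Ldha are added as enzymes with cores that did not pass in this comparison, and this addition was made after their values were seen.
Hk2, chr6:82774405-82774704, minus strand: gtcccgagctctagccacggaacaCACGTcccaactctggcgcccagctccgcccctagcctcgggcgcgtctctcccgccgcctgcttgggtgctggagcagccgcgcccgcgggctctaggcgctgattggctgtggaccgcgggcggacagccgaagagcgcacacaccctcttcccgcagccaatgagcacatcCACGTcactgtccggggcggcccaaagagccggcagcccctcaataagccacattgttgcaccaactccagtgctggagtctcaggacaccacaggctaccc
Pfkfb3, chr2:11553880-11554179, minus strand: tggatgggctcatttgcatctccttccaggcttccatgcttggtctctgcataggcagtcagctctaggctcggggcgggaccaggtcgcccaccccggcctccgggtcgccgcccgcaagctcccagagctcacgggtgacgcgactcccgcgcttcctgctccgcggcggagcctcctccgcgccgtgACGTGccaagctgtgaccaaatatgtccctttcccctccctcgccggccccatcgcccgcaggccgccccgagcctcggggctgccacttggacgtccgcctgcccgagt
Egln3, chr12:54203825-54204124, minus strand: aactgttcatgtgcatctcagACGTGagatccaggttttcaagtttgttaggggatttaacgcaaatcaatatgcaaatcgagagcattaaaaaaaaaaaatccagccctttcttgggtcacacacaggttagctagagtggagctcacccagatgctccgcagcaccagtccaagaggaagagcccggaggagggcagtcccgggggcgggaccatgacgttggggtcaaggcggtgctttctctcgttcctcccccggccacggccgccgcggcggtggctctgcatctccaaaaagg
Bnip3, chr7:138909457-138909756, minus strand: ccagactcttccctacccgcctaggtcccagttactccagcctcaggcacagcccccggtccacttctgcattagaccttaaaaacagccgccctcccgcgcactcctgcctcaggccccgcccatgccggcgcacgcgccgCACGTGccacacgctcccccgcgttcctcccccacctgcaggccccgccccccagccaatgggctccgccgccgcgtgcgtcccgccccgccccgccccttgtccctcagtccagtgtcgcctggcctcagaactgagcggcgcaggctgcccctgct
Ankrd37, chr8:45999801-46000100, minus strand: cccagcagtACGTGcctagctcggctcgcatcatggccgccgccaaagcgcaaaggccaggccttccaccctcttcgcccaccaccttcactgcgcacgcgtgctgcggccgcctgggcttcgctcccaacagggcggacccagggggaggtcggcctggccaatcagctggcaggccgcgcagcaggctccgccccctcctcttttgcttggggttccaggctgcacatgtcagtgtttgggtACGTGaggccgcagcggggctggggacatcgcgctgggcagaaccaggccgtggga
Pgk1, chrX:106186850-106187149, plus strand: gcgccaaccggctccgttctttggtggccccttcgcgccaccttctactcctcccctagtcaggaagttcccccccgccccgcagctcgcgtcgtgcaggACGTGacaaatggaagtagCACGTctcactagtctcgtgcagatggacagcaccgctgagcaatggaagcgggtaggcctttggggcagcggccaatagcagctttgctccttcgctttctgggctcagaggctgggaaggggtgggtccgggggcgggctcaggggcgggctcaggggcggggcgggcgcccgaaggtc
Ldha, chr7:46845554-46845853, plus strand: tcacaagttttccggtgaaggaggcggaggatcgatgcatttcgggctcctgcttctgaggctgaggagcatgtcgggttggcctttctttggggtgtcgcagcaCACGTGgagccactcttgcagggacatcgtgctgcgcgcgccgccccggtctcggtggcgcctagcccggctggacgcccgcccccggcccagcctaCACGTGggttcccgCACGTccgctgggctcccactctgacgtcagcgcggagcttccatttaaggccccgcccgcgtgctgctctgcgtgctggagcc
Hk2 holds 2 cores, Pfkfb3 1, Egln3 1, Bnip3 1 palindromic core, Ankrd37 2, Pgk1 2 and Ldha 3, of which 2 are palindromic. Among the 29 measured genes listed there, 17 hold at least 1 core (58.6%), beside 19.7% of the 27025 genes of the table. By group these are 6 of 14 glycolytic enzymes, 3 of 5 transport and flux regulators, 7 of 9 other HIF targets and Hif1a. A core was present in 4 of the 5 genes that fell in acid, in the 1 of those in the table that rose and in 12 of the 23 that did not pass. The other form, GCGTG, or its complement CACGC, was found in 62.1% of the genes described and in 32.5% of all genes. A match is a match of letters in this window and does not show a bound site.

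**Figure D2:**
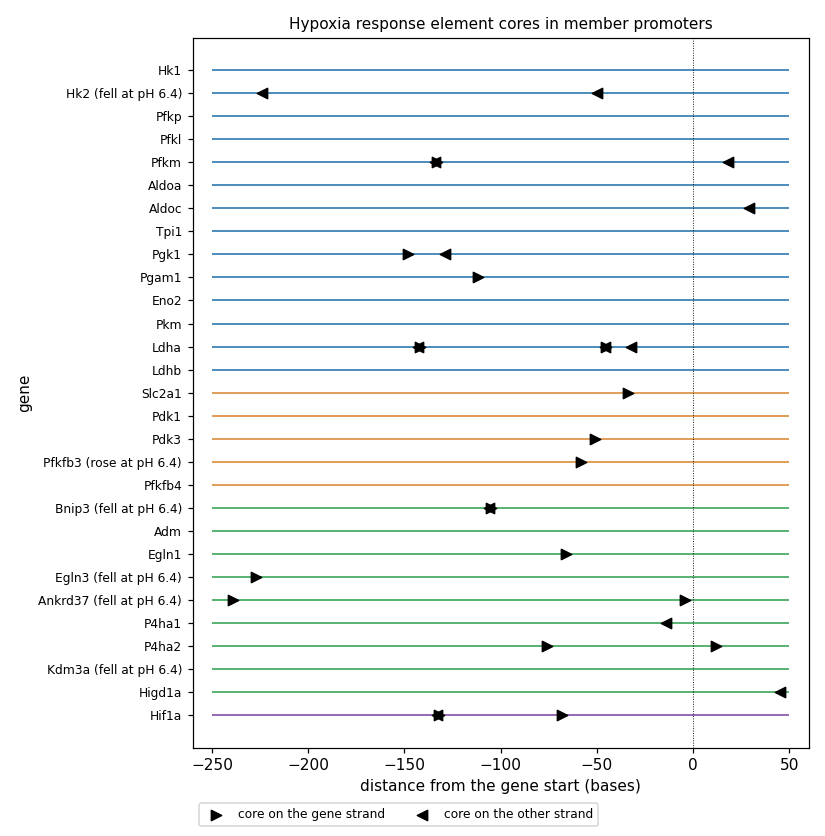
Position of each core (arrowheads, pointing right on the gene's strand and left on the other strand) in the promoter window of the 29 measured genes in the table, against distance from the gene start in bases. Lines are blue for glycolytic enzymes, orange for transport and flux regulators, green for other HIF targets and purple for Hif1a, and overlapping arrowheads are the palindrome. Cores occur in genes that fell, in Pfkfb3, which rose, and in enzymes such as Pgk1 and Ldha that did not pass in the shared comparison.

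The 4 h and 12 h responses were then taken apart in a fit over all 10 arrays with the lines as the repeats of each condition. At 4 h of acid 4 of the 31 genes rose and 5 fell, beside 6.27% and 11.6% of all genes tested. At 12 h 4 rose and 11 fell, 15 in all, beside 17.0%, 17.7% and 34.6% of all genes tested. At an unadjusted p under 0.05 there were 16 of 31 at 12 h, beside 45.6%. Of the 11 that fell at 12 h, 4 were glycolytic enzymes, 2 were transport or flux regulators and 5 were other HIF targets. The share that fell at 4 h, 5 of 31, is close to the background, and the share that fell at 12 h, 11 of 31, is above it. With the filter raised to the 60th percentile, which most of the genes described passed, 49.0% of all genes were called at 12 h. The 12 h share is therefore not read as a trait of these genes. The median difference of the other HIF targets was -0.04 at 4 h and -0.86 at 12 h, that of the enzymes 0.07 and -0.12, and that of transport and regulators 0.23 and -0.02. On the 2 arrays of 12 h at pH 6.4 the ratio of the 3′ to the 5′ Gapdh control probe sets, a measure of RNA integrity, was 0.770 (TDAG8) and 0.756 (control), against 0.780 to 0.841 on the other 8 arrays. The actin ratio was 1.27 and 1.35 there, within the 1.26 to 1.35 of the others, and the part of RNA integrity in the results was not tested. The summed signal of the epithelial markers spanned 1310.1 to 2895 on the acid arrays and 1647 to 2237 on the neutral ones, and that of the mesenchymal markers spanned 7232 to 10652 on the acid and 8854 to 10871 on the neutral arrays. At 12 h of acid Fn1 (-1.07), Pdgfrb (-2.13) and Ocln (-1.09) of these lists were lower and the macrophage gene Cd68 (0.66) was higher, and their part was not tested either. With arrays centred on the median, the median of all genes moved to 0.12 at 12 h and to 0.22 for the difference between the times, and the differences below are to be read against it under that scaling.

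The difference between the times was tested directly, as the acid response at 12 h minus that at 4 h. Of the 31 genes 1 had a higher and 4 had a lower response at 12 h, beside 6.62% and 5.54% of all genes tested. Pfkl, the liver-type subunit of phosphofructokinase, the committed step of glycolysis, changed most. It read 1053 and 333 in TDAG8 cells and 918 and 257 in control cells at pH 6.4, against 1005 and 957 in TDAG8 cells and 885 and 1032 in control cells at pH 7.4, and 1134 (TDAG8) and 979.7 (control) before treatment. At 4 h the acid and neutral values were nearly equal in both lines, and at 12 h the acid signal was far below the neutral one in both. Its acid difference was -0.04 at 4 h and -1.84 at 12 h (difference of the differences -1.80, SE 0.19, adjusted p = 0.0155). A second probe set gave 0.05 and -1.46, and another, dim one with a mean signal of 20.4 gave -1.27 and -0.56. Neither of the other subunits passed at 12 h, with -0.07 for the platelet type Pfkp (95% interval -0.38 to 0.25) and 0.07 for the muscle type Pfkm (95% interval -0.23 to 0.37) at 12 h.

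Pdk1 encodes pyruvate dehydrogenase kinase 1, which keeps pyruvate out of the citric acid cycle. Its signals were 689 and 356 in TDAG8 cells and 571 and 246 in control cells at pH 6.4, against 737 and 766 in TDAG8 cells and 574 and 564 in control cells at pH 7.4, and 793 (TDAG8) and 511 (control) before treatment. The acid and neutral signals were close at 4 h and apart at 12 h in both lines, with acid differences of -0.08 and -1.20 (difference -1.12, SE 0.17, adjusted p = 0.0203). One dim further probe set of Pdk1 went the other way, with 0.65 at 4 h and 0.11 at 12 h. Ndrg1, a stress-responsive gene of differentiation and lipid traffic, read 918 and 533 in TDAG8 cells and 836 and 507 in control cells at pH 6.4, against 927 and 1095 in TDAG8 cells and 807 and 965 in control cells at pH 7.4, and 765 (TDAG8) and 716 (control) before treatment. Acid and neutral arrays overlapped at 4 h and separated at 12 h, where the acid difference was -1.04 on the log2 scale (difference between times -0.97, SE 0.13, adjusted p = 0.018). Its other 4 probe sets gave -1.03, -0.79, -0.88 and -0.70 at 12 h.

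Egln1, the gene of the main oxygen-sensing prolyl hydroxylase PHD2, read 193 and 132 in TDAG8 cells and 163 and 93.5 in control cells at pH 6.4, against 202 and 228 in TDAG8 cells and 189 and 217 in control cells at pH 7.4, and 249 (TDAG8) and 202 (control) before treatment. The arrays at 4 h overlapped between the pH values and those at 12 h did not (-0.02 and -0.97, difference -0.95, SE 0.16, adjusted p = 0.0236). This difference did not pass with arrays centred on the median or with the mean of all probe sets (-0.64 in each), and the second probe set of Egln1 gave -0.35 at 12 h. Slc2a3 went the other way, with acid differences of 0.66 at 4 h and 1.81 at 12 h (difference 1.15, SE 0.18, adjusted p = 0.0207). Its 4 h call was lost in 3 of 11 alternative fits, and the size moved in 2. With no filter 0 of the 31 genes passed this test of times, and 0 of all genes did.

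**Figure D3:**
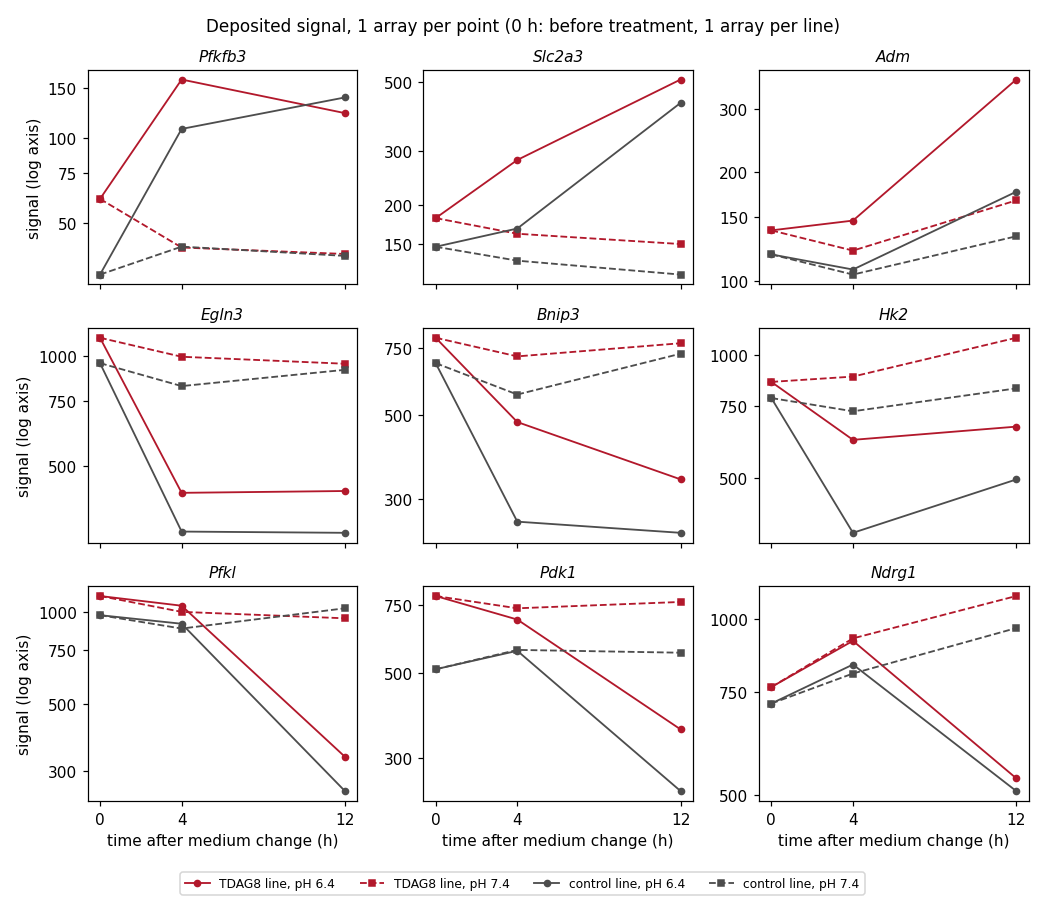
Deposited signal (log axis) of 9 genes against time after the medium change in hours, 1 array per point. Red is the TDAG8 line and grey the control line, solid lines with circles are pH 6.4 and dashed lines with squares pH 7.4, and the values at 0 h are the arrays before treatment. Pfkfb3, Egln3, Bnip3 and Hk2 had moved by 4 h, while Pfkl, Pdk1 and Ndrg1 separated at 12 h.

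Other genes had moved by 4 h and were called at both times. Egln3 differed by -1.26 at 4 h and -1.38 at 12 h, Hk2 by -0.75 and -0.79, Bnip3 by -0.81 and -1.43, and Kdm3a by -0.57 and -1.08. Pfkfb3 differed by 1.76 and 1.77. Their time differences did not pass, with 95% intervals of -0.49 to 0.25 for Egln3, -0.50 to 0.43 for Hk2, -1.20 to -0.05 for Bnip3, -1.0 to -0.02 for Kdm3a and -0.84 to 0.87 for Pfkfb3. Those of Bnip3 and Kdm3a lie below 0, and those of Egln3, Hk2 and Pfkfb3 include it. Pdk3, a further pyruvate dehydrogenase kinase, rose at both times. It read 442 and 394 in TDAG8 cells and 429 and 341 in control cells at pH 6.4, against 318 and 290.3 in TDAG8 cells and 296 and 284 in control cells at pH 7.4, and 318 (TDAG8) and 295 (control) before treatment, and each acid value was above each neutral one (log2 0.53 with adjusted p = 0.0151 at 4 h, log2 0.33 with adjusted p = 0.0379 at 12 h). At 12 h Pdk3 was thus higher and Pdk1 lower in acid.

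**Figure D4:**
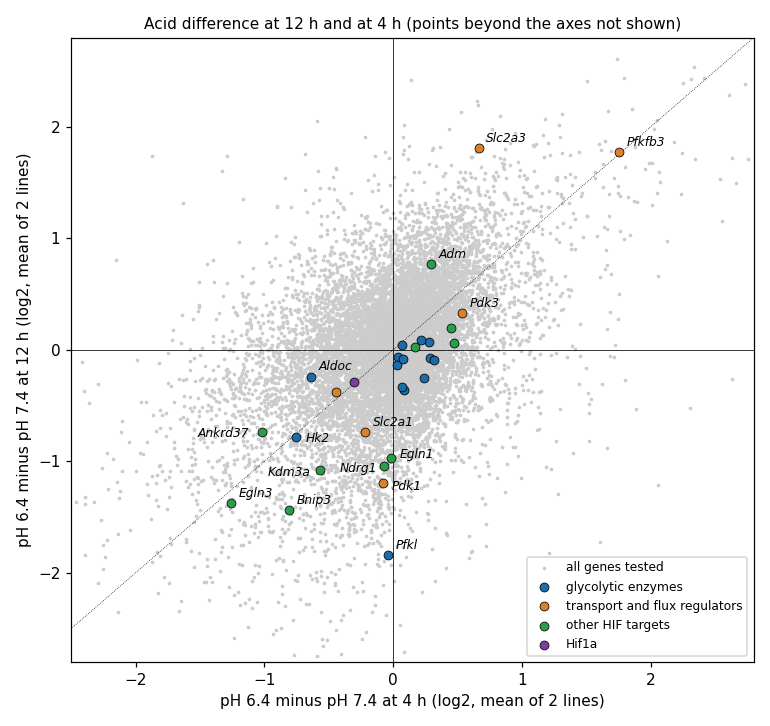
Acid difference (pH 6.4 minus pH 7.4, log2, mean of both lines) at 12 h (vertical) against that at 4 h (horizontal) for all genes tested (grey) and the 31 genes described (coloured by group); the dotted line marks equal differences. Pfkl, Pdk1, Ndrg1 and Egln1 lie near 0 at 4 h and at -1.84, -1.20, -1.04 and -0.97 at 12 h, while Egln3, Hk2 and Pfkfb3 lie near the dotted line.

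A last set of genes passed at one time only, with no passing difference between the times. Slc2a1, the gene of the basal glucose transporter GLUT1, read 1327 and 1048 in TDAG8 cells and 950.3 and 661 in control cells at pH 6.4, against 1247 and 1356 in TDAG8 cells and 1161 and 1363 in control cells at pH 7.4, and 1355 (TDAG8) and 1173 (control) before treatment. The fall at 12 h was larger in the control line (-1.09) than in the TDAG8 line (-0.38), and the fit gave -0.73 (SE 0.18, adjusted p = 0.0235). The call was lost with arrays centred on the median and with no filter. GLUT1 and GLUT3 transcripts thus moved in opposite directions at 12 h. Adm, which encodes the vasodilator peptide adrenomedullin, read 147 and 361 in TDAG8 cells and 107 and 176 in control cells at pH 6.4, against 121 and 167 in TDAG8 cells and 104 and 133 in control cells at pH 7.4, and 138 (TDAG8) and 118 (control) before treatment. Its highest value was that of the TDAG8 line at 12 h of acid, and the 4 h arrays of the 2 pH values overlapped (log2 0.77, SE 0.21, adjusted p = 0.033 at 12 h). This call was lost with no filter. P4ha1, a collagen prolyl hydroxylase subunit, rose at 4 h (log2 0.45, SE 0.10, adjusted p = 0.0328). It read 499 and 481 in TDAG8 cells and 409.9 and 469 in control cells at pH 6.4, against 368 and 461 in TDAG8 cells and 308 and 368 in control cells at pH 7.4, and 410 (TDAG8) and 357 (control) before treatment, so that the acid arrays at each time lay above the neutral ones of that time. The 4 h call was lost with arrays centred on the median (log2 0.36) and with no filter.

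Ldha, Tpi1 and Aldoc passed at one time by small margins. Ldha, the lactate dehydrogenase subunit that favours lactate, read 4229 and 2605 in TDAG8 cells and 4024 and 2401 in control cells at pH 6.4, against 3513 and 3148 in TDAG8 cells and 3397 and 3099 in control cells at pH 7.4, and 3396 (TDAG8) and 4077 (control) before treatment. Acid values were above the neutral ones at 4 h and below them at 12 h in the deposited signal (log2 -0.34, SE 0.10, adjusted p = 0.0403 at 12 h). Tpi1, triose phosphate isomerase, showed the same order of values, with 3979 and 2726 in TDAG8 cells and 3564 and 2232 in control cells at pH 6.4, against 3327 and 3225 in TDAG8 cells and 2814 and 3057 in control cells at pH 7.4, and 3079 (TDAG8) and 3242 (control) before treatment (log2 -0.36, SE 0.11, adjusted p = 0.0445 at 12 h). Neither Ldha nor Tpi1 passed at 12 h with the values as deposited (-0.32 and -0.35) or with arrays centred on the median (-0.17 and -0.20). Aldoc, a dim aldolase isoform with signals of 7.2 to 18, read 11.1 and 13.4 in TDAG8 cells and 7.2 and 11.5 in control cells at pH 6.4, against 18 and 18 in TDAG8 cells and 12.1 and 15.9 in control cells at pH 7.4, and 11.4 (TDAG8) and 12.9 (control) before treatment. The 4 h acid values lay below the 4 h neutral ones. It fell at 4 h (log2 -0.64, SE 0.16, adjusted p = 0.0455), and the call was lost with trend and robust variance (-0.64) and as deposited (-0.60), among other settings.

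The remaining 9 glycolytic enzymes passed in none of the acid comparisons. Pgk1, phosphoglycerate kinase, which makes the first ATP of the pathway, read 4291 and 3398 in TDAG8 cells and 4346 and 4350.2 in control cells at pH 6.4, against 3674 and 3515 in TDAG8 cells and 3565 and 3642 in control cells at pH 7.4, and 3424 (TDAG8) and 4339 (control) before treatment. Its acid difference was 0.07 at 4 h and 0.04 at 12 h, with a 95% interval of -0.18 to 0.26 at 12 h, and another of its probe sets gave 0.41 there. For Pkm, pyruvate kinase, the 12 h difference was -0.09 (-0.31 to 0.14), for Aldoa, the main aldolase, -0.07 (-0.28 to 0.14), and for Pgam1, phosphoglycerate mutase, -0.14 (-0.41 to 0.13). Ldhb (signals of 64.6 to 95.2) and the neuronal enolase Eno2 (signals of 14.8 to 39.7) differed by 0.09 and -0.09 at 12 h. The 4 probe sets of Ldhb disagreed in sign at 4 h, from -0.32 to 0.31. In the deposited signal the enzymes were higher in acid at 4 h by a median of 0.24, which quantile normalisation brought to 0.07, so the sign of a small common shift was the same and its size depended on the scaling.

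Among the other HIF targets, P4ha2 (0.47 at 4 h and 0.06 at 12 h), a second collagen hydroxylase subunit, and Higd1a (0.17 and 0.03), a mitochondrial inner membrane protein, passed at neither time. Pfkfb4, a relative of Pfkfb3, had -0.44 and -0.38 and did not pass. Hif1a itself read 3433 and 3336 in TDAG8 cells and 3214 and 2758 in control cells at pH 6.4, against 3451 and 3658 in TDAG8 cells and 3575 and 3742 in control cells at pH 7.4, and 3236 (TDAG8) and 3760.4 (control) before treatment. Its acid difference was -0.30 at 4 h (95% interval -0.62 to 0.02) and -0.29 at 12 h (-0.61 to 0.03), neither of which passed. Over the 4 probe sets of Hif1a the acid mean ran from -1.41 to -0.17. The Hif1a transcript does not report HIF-1 protein, which is controlled mainly by its stability.

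TDAG8 cells were then set against control cells in 5 matched pairs of arrays, 1 per condition, which asked whether the genes differed between the lines whatever the pH. Of the 31 genes 30 had a positive log2 difference and Ldhb a negative one, yet 0 passed by limma, beside 1.23% of all genes tested, or 0.691% in the direction of the TDAG8 line. At an unadjusted p under 0.05 there were 16 of 31, beside 20.8% of all genes tested. The median difference was 0.16 for the glycolytic enzymes, 0.26 for transport and regulators and 0.20 for the other HIF targets, beside -0.0025 over all genes. In all 5 pairs 16 of the 31 genes were higher in the TDAG8 line, beside 10.6% of all genes tested, and 1 was lower, beside 11.8%. The 16 that were higher in every pair were 6 of 14 enzymes, 3 of 6 transport and flux regulators and 7 of 10 other HIF targets.

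The largest difference was that of Eno2, with signals of 24.4 before treatment, 39.7 and 32.3 at pH 6.4 and 27.9 and 37 at pH 7.4 in the TDAG8 line. The control line read 14.8, 18.1 and 20, and 16.1 and 26.3 (log2 0.66, SE 0.11, adjusted p = 0.056). Pdk1 followed (log2 0.45, SE 0.08, adjusted p = 0.0598), with 356 to 793 in TDAG8 cells and 246 to 574 in control cells, then Adm (0.42), Hk2 (0.40) and Bnip3 (0.39). Pgk1 (0.02, 95% interval -0.12 to 0.16) and Pkm (0.01, -0.14 to 0.15) were near 0. The count of passing genes depended on the fit, and so did the share of all genes that passed. With trend and robust variance 11 of 31 were higher, beside 7.26% of all genes that passed in either direction, and with a pseudocount of 32 there were 9, beside 6.27%. With the filter raised to the 60th percentile 5 of the 28 genes left were higher, beside 6.32%, with the pseudocount at the 40th percentile 2 of 31, beside 2.16%, and as deposited 1 of 31, beside 0.905%. The medians of the enzymes were 0.05 with arrays centred on the median and 0.08 as deposited. The summed signal of the 8 epithelial markers was 2108 to 2895 in TDAG8 cells and 1310.1 to 2101 in control cells, and that of the 6 mesenchymal markers was 7232 to 9441 in TDAG8 and 9152 to 11073 in control cells. That of the 4 skeletal muscle markers was 66.1 to 85.4 in TDAG8 and 26.6 to 68.2 in control cells. In TDAG8 cells most of it came from Ckm, which read 47.2 to 52.1 there and 8.4 to 36.3 in control cells. Of the 2 skeletal muscle markers that could be tested 0 passed. The part of these markers in the line difference was not tested.

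**Figure D5:**
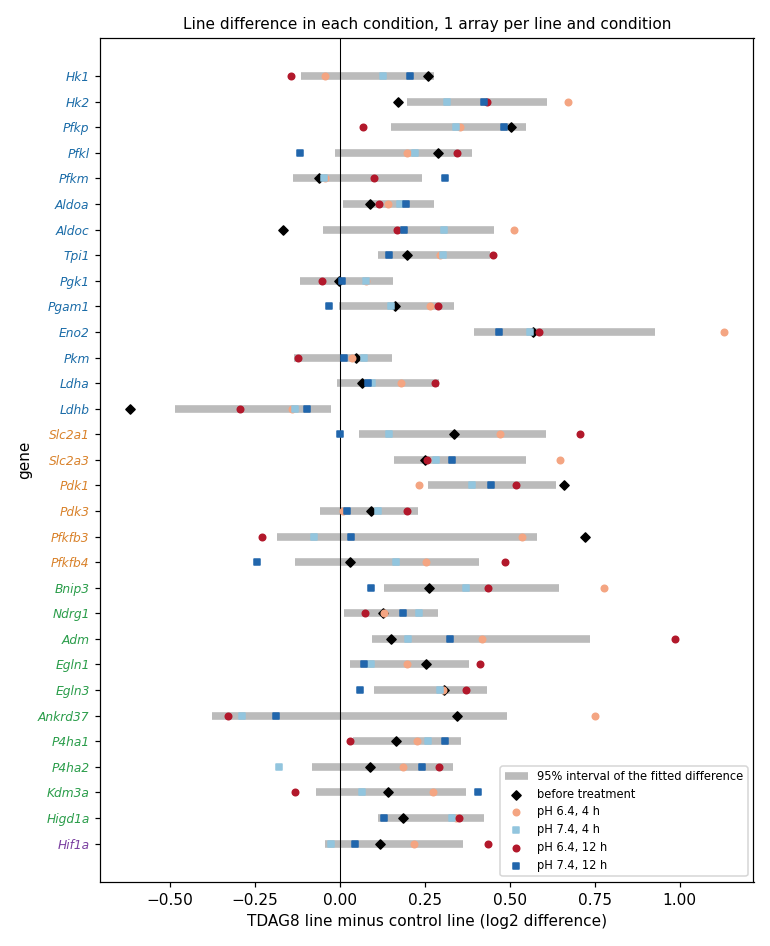
TDAG8 line minus control line (log2 difference, horizontal) for each gene in each of the 5 conditions (symbols, 1 array per line and condition), with the 95% interval of the fitted difference over the 5 pairs (grey bars). Most points lie to the right of 0, Eno2 is farthest right at 0.66, and Ldhb lies to the left.

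Whether the acid response differed between the lines is the question nearest to the stated aim of finding genes that TDAG8 regulates. For the interaction of pH and line 0 of the 31 genes and 0 of all 12160 genes passed by limma, and at an unadjusted p under 0.05 there were 0 of 31 and 335 of 12160 (2.75%). The intervals are wide. Only 2 residual degrees of freedom remain, and the fit has no term for time. Its spread therefore includes any difference in acid response between 4 h and 12 h, which for Pfkl was -0.04 against -1.84. For Egln3 the acid response in the TDAG8 line minus that in the control line was 0.16 (95% interval -0.56 to 0.88), for Hk2 0.18 (-0.53 to 0.89), for Pfkfb3 0.18 (-0.68 to 1.03) and for Pfkl 0.22 (-2.04 to 2.47). The largest value was that of Slc2a1, 0.52 (-0.42 to 1.46). Bnip3 had acid differences of -0.61 and -1.26 in TDAG8 cells and -1.01 and -1.61 in control cells, and the difference of 0.37 did not pass (-0.63 to 1.38). Adm at 12 h of acid read 361 in TDAG8 cells and 176 in control cells, a line difference of 0.99 beside 0.15 before treatment, and its interaction of 0.44 (-0.48 to 1.36) did not pass either.

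The arrays at pH 7.4 and before treatment show how the genes moved without acid. From before treatment to 4 h at pH 7.4 the 31 differences lay between -0.38 (P4ha2) and 0.24 (Aldoc), and from 4 h to 12 h at pH 7.4 between -0.31 (Pfkfb4) and 0.42 (Eno2). In each comparison 0 of 31 and 0 of 12160 genes passed by limma, and 2 of 31 had an unadjusted p under 0.05, beside 4.66% and 10.6% of all genes tested. Ndrg1 was one of those 2 in both comparisons (0.23 and 0.28), and its signal at pH 7.4 was highest at 12 h in both lines.

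Further genes of the pathway, from lists drawn up in the same way, give the setting of these results. Of 25 further HIF targets that were tested, 2 rose and 7 fell at 12 h of acid, beside 17.0% and 17.7% of all genes tested, and 1 rose and 4 fell at 4 h, beside 6.27% and 11.6%. The count of 9 of 25 at 12 h is close to the background of 34.6%, and the median at 12 h was -0.31. Hilpda, a lipid droplet gene induced by hypoxia, rose (log2 1.62, SE 0.30, adjusted p = 0.00913 at 12 h). It read 262 and 229 in TDAG8 cells and 118 and 143 in control cells at pH 6.4, against 51 and 56.5 in TDAG8 cells and 44 and 63.3 in control cells at pH 7.4, with no overlap. Ndufa4l2, a HIF target related to a respiratory chain subunit, read 4.6 in TDAG8 and 2.3 in control cells at 12 h of acid, against 18.5 and 34.9 at 12 h of pH 7.4. Its acid signals lay below the filter level of 6.61, so no size is given for its fall. Ddit4 (-1.45), an inhibitor of the kinase mTOR, and Plod1 (-1.41), a collagen lysyl hydroxylase, also fell at 12 h. At 4 h Ak4 (-1.30), an adenylate kinase, Ddit4 (-1.07) and Cited2 (-0.80), which binds the HIF coactivator p300, were among those that fell, and Hilpda rose (1.95). In the shared acid comparison 1 of the 25 genes rose and 3 fell, beside 4.51% and 5.65% of all genes tested. These were Hilpda (1.79), and Ddit4 (-1.26), Ero1a (-0.79) and the dim Angptl4 (-0.69). Of the 25 genes 18 were positive between the lines and 0 passed, with a median of 0.22 beside -0.0025 over all genes.

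Of 9 HIF subunits and regulators tested, 1 rose and 2 fell at 12 h of acid, and 3 of 9 is close to the 34.6% of all genes called there. Arnt, the partner of the HIF alpha subunits, fell at both times (-0.65 and -0.48), and so did the remaining prolyl hydroxylase gene Egln2 (-0.87 and -0.88), so that all 3 Egln genes were lower at 12 h of acid. The ubiquitin ligase scaffold Cul2 rose at 12 h (0.50). At 4 h 1 of the 9 rose and 3 fell, beside 6.27% and 11.6% of all genes tested. This is a larger share than the background, in a short list drawn up with earlier results known. Hif3a was higher in acid then (0.93), with 62.7 (TDAG8) and 60.7 (control) against 39 and 29.9 at pH 7.4. Without acid it also read 41.9 and 54.7 before treatment and 47 and 62.9 at 12 h of pH 7.4, so its acid and neutral arrays overlapped. Hif1an, which encodes the asparaginyl hydroxylase FIH, fell at 4 h (-0.41). Of 11 further glycolytic and glycogen enzymes, 2 rose and 5 fell at 12 h, beside 17.0% and 17.7% of all genes tested. In the test of times 4 of the 11 had a lower acid response at 12 h than at 4 h, beside 5.54% of all genes. Among these 4, Pklr was dim, with signals of 5.5 to 10.6. The phosphoglucomutases moved apart, with Pgm2 at 1.26 and Pgm1 at -0.91. Adpgk, a hexokinase that uses ADP, rose (0.65) and Pfkfb2 (-0.86), an isoform of Pfkfb3, fell. The glycogen branching enzyme Gbe1 fell at 12 h too (-0.62) and was the one further gene that was higher in the TDAG8 line (0.39). Of 10 genes of lactate and pyruvate handling, 2 rose and 0 fell at 12 h, beside 17.0% and 17.7% of all genes tested. Both are subunits of pyruvate dehydrogenase, Dlat (0.41) and Pdhb (0.38). Neither lactate transporter, Slc16a1 nor Slc16a3, passed in any of the comparisons.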

How the data were processed

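The authors deposited 1 linear signal intensity per probe set and array, scaled to a 2% trimmed mean of 100 on each array as the values show. The array type and the pooling of 4 cultures come from the series' design text, and the software is not given in the sources used here, nor is how probes were summarised. Of 45101 probe sets, 34945 carried 1 gene symbol in the platform annotation, 932 several, 9160 none, and 64 were control probe sets. The members and gene lists were chosen with earlier results of these data known.

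Intensities were quantile-normalised and taken as log2(signal + 2.4), the pseudocount being the 20th percentile of all values. Genes with a mean log2 value at or above the 40th percentile of the probe sets (3.17, a signal of 6.61) were tested, and fold changes on this scale understate those of dim genes. With limma 3.58.1 in R 4.3.3, 8 comparisons were fitted over 12160 genes, with lmFit and eBayes and Benjamini-Hochberg adjustment at 0.05. The acid comparison blocked on line and time (3 residual degrees of freedom), the line comparison on condition (4), and the interaction of pH and line was left with 2. The other comparisons used all 10 arrays with the lines as the repeats. With 1 array per line and condition, lines and times stand in for replicates, and the number of arrays limits the precision. The p-values cover the spread between single arrays, which includes any difference in response between the lines. In the shared acid comparison that spread also includes any difference in response between the times. The interaction of pH and line was fitted without a term for time, so its spread includes the difference between the times too. The spread between repeats of 1 line and condition could not be measured.

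Values on every array are given for the genes that passed in any comparison and for the 2 of each group with the largest acid difference. Of each further list, the counts at 12 h of acid are given, with some of the passing genes and some counts of the other comparisons. Gapdh has no probe set with a single symbol apart from the control probe sets and is not analysed here as a gene. Promoters were searched on both strands for ACGTG and GCGTG. The fits were tested on simulated data. Alternatives were other normalisations, pseudocounts, filters, probe set rules and variance models, models without the block, and leaving out each pair or line.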

Additional observations from a re-analysis of the deposited data

Results flagged for a closer look

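For 5 genes the acid response differed between the times by the test of that difference itself (limma, adjusted over all genes tested, values as the response at 12 h minus that at 4 h on the log2 scale, the same sign in both lines). The value was -1.80 for Pfkl, -1.12 for Pdk1, -0.97 for Ndrg1, -0.95 for Egln1 and 1.15 for Slc2a3. The adjusted p ranged from 0.0155 for Pfkl to 0.0236 for Egln1. Of all genes tested 12.2% passed this test in either direction. Each group had 1 array per line and condition, so no group was large enough to look for a single outlying array.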

How the results depend on the processing

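No paired analysis was possible because the labels carry no replicate numbers, in the sense of pairing samples by number. The blocks of the acid and line comparisons match arrays by line and time or by condition, as the design gives them. Without these blocks 8 and 0 of the 31 genes passed, beside 15.5% and 0.123% of all genes in the same fits. Of 421 values for 36 single gene results under other settings, 332 kept their direction and their side of the threshold or their size, 73 lost the call, 16 moved and 0 changed sign. In the shared acid comparison 4 of the 31 genes passed after centring arrays on the median, 4 with the pseudocount at the 5th percentile, 2 with no filter, 13 with pH by time added (beside 7.47%, 7.68%, 1.40% and 28.1% of all genes), and 0 to 2 when 1 pair was left out. Between the lines 1 passed with values as deposited, 2 with the pseudocount at the 40th percentile, 9 with a pseudocount of 32, 5 with a filter at the 60th percentile and 11 with trend and robust variance (beside 0.905%, 2.16%, 6.27%, 6.32% and 7.26% of all genes in the same fits), and the enzyme median was 0.053 with arrays centred on the median, 0.084 as deposited and 0.14 to 0.18 with 1 condition left out. At 4 h of acid 5 passed with arrays centred on the median and 3 with no filter (beside 15.3% and 6.05%). The 4 h medians were 0.18 (enzymes), 0.17 (transport and regulators) and -0.12 (other HIF targets) with arrays centred on the median, and 0.24 (enzymes) and -0.059 (other HIF targets) as deposited. They were 0.21 (transport and regulators) and -0.042 (other HIF targets) with a pseudocount of 32, -0.0198 (other HIF targets) with the filter at the 60th percentile, and 0.36 (transport and regulators) and 0.0086 (other HIF targets) with the mean of all probe sets, so the sign of the last group at 4 h is not settled. At 12 h the enzyme median was -0.0152 with arrays centred on the median, -0.17 as deposited and -0.18 to -0.11 with 1 line left out. The other HIF targets had 12 h medians of -0.80 with arrays centred on the median, -0.94 as deposited, -0.76 and -0.56 with the pseudocount at the 40th percentile and at 32, -0.97 with the filter at the 60th percentile, -0.70 with the mean of all probe sets and -0.81 to -0.74 with 1 line left out. For the difference between the times 0 passed with no filter, 2 with the mean of all probe sets and 9 with trend and robust variance (beside 0%, 7.32% and 20.9%). Testing more or fewer genes changes the adjustment by construction, and for the other settings the cause was not tested.

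With 1 array per line and condition, small differences of the bright enzyme probe sets depended on the scaling, and dim genes such as Ankrd37 and Aldoc on the pseudocount. No array repeats a line and condition, so the acid comparisons treat the lines as repeats. The interaction of pH and line had little power, with 2 residual degrees of freedom and a spread that includes differences in acid response between the times. In data simulated with that spread limma recovered 0 of 100 genes changed by 1 and 0 of 100 changed by 3 on the log2 scale.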
